A study of Homo sapiens with 12 samples.

Results

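The question addressed here was whether an mTOR inhibitor and a SHP2 inhibitor, given together to MHCC97H cells, changed each transcript by the sum of what the drugs did alone. MHCC97H is an established human hepatocellular carcinoma (HCC) cell line. The 4 MHCC97H libraries were used out of 12 in the series, taken by the cell line and treatment in their labels, with 1 library per condition. The conditions were untreated cells, AZD8055 at 100 nM, compound #57 alone, and AZD8055 at 100 nM together with compound #57 at 5 µM. The dose of compound #57 given alone to the sequenced cells is not given in the sources used here. All cells were wild type, grown in DMEM with serum, and collected after 24 h. Hep3B and Huh7, 2 further HCC lines with the same 4 treatments, were collected after 48 h, so that cell line and time cannot be told apart in any comparison with them.

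AZD8055 is an ATP-competitive inhibitor of the mTOR kinase, which drives protein, lipid and ribosome synthesis and cell growth when nutrients and growth factors are plentiful. Inhibition of mTOR is known to lift feedback on receptor tyrosine kinases (RTK). Compound #57 is an allosteric inhibitor of SHP2, the tyrosine phosphatase encoded by PTPN11, which passes signals from most RTK to RAS and ERK. ERK in turn switches on its own inhibitors, among them the DUSP phosphatases and the SPRY and SPRED proteins.

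For each gene, the departure was the log2 change with the combination minus the log2 changes with AZD8055 and with compound #57, each against untreated cells. A departure of 0 means that the combination gave the product of both fold changes, a departure of 1 means a level 2-fold above that product, and -1 a level 2-fold below it. This is a statement about RNA levels on a log2 scale and not a measure of drug synergy on growth. The 3 changes share the untreated library. With 1 library per condition, no p-value can be given within MHCC97H, and each 95% interval was computed from the reads of the 4 libraries and covers counting error only. Differences between cultures are not in these intervals.

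The MHCC97H libraries held 13016112 reads (untreated), 14246334 (AZD8055), 11389073 (compound #57) and 12359836 (combination). Genes with a mean of at least 100 reads over the 4 libraries were called well counted. These were 9578 of the 11548 genes of the table, and the other 1970 were left out of every count below. The epithelial and hepatic genes KRT8 (43735 to 60890 reads), KRT18 (15721 to 24563) and HNF4A (775 to 2041) were present, as was the plasma protein gene ALB (203 to 834), whereas APOA1 (4 to 10) and SERPINA1 (13 to 22) were nearly absent. Of the markers of other cell types, the mesenchymal gene COL1A1 had 13 to 29 reads, and the endothelial gene PECAM1 had 371 to 617, with 569 in the combination. Of the drug targets, PTPN11 lay on the sum and MTOR below it. PTPN11 had 5704 reads untreated, 4920 with AZD8055, 5026 with compound #57 and 4392 with the combination, a departure of 0.03 (95% interval -0.05 to 0.11). MTOR had 1650, 1446, 1474 and 1032 reads in the same order, a departure of -0.31 (-0.46 to -0.16).

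Most transcripts lay near the log2 sum, but none of the 3 changes reached 2-fold in 84.7% of the genes. A gene that changed little in all 3 lies near the sum by definition. The shares over all genes therefore say little about genes that responded. The departure had a median of -0.03 and an SD of 0.28 over the 9578 genes, and 92.0% of the genes lay within 0.5 of 0. By comparison, the log2 change itself had an SD over genes of 0.57 with AZD8055, 0.34 with compound #57 and 0.71 with the combination. Counting error alone left an SE with a median of 0.12, and the 95% interval excluded 0 in 34.3% of the genes, lying above 0 in 13.5% and below 0 in 20.8%. The departure itself was above 0 in 43.7% of the genes and below 0 in 56.3%, and in Hep3B and Huh7 it was above 0 in 54.2% and 49.6%. Counts over gene lists are to be read against these shares. Only 23 genes (0.24%) were at least 2-fold above the sum, and 43 (0.449%) were at least 2-fold below it. The values nearest to this limit were 1.01 and 0.998 on the upper side and -1.01 and -0.98 on the lower side, so that the limit falls within a continuous range. In Hep3B, 57 of 10066 well-counted genes were at least 2-fold above the sum (0.566%) and 300 below it (2.98%), with an SD of 0.44. In Huh7, these were 73 of 9928 (0.735%) and 182 (1.83%), with an SD of 0.40.

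**Figure D1:**
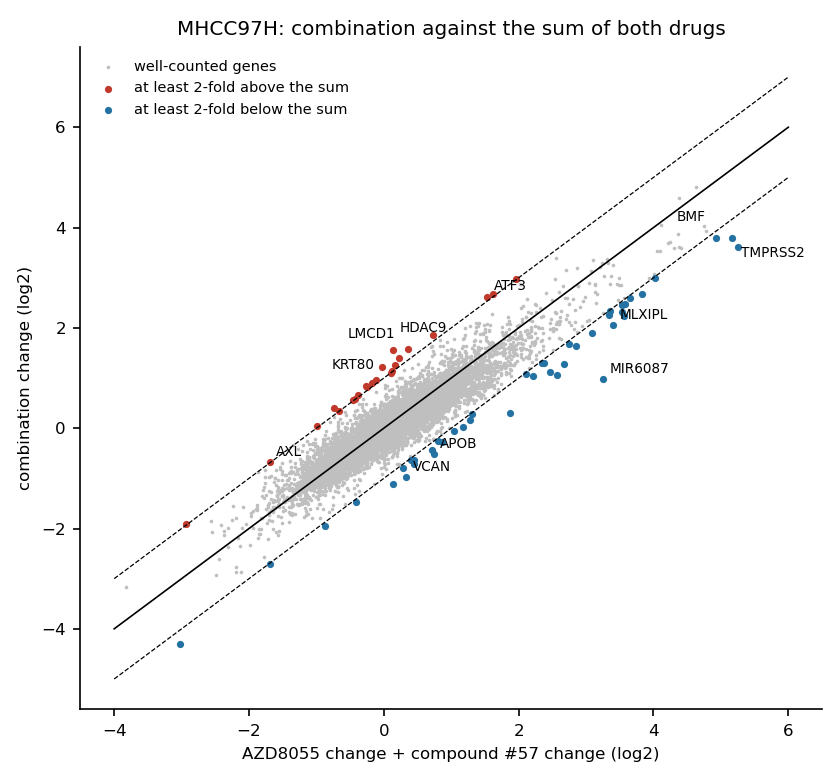
Each point is 1 of 9578 well-counted genes in MHCC97H, with the sum of the log2 changes with AZD8055 and compound #57 on the x axis and the log2 change with the combination on the y axis. The solid line marks a departure of 0 and the dashed lines a departure of 1 and -1, and 23 genes lie on or above the upper dashed line and 43 on or below the lower one.

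Departures were weakly related between any pair of lines. Across the 8625 genes that were well counted in all 3 lines, Pearson's r of the departure was 0.10 between MHCC97H and Hep3B (Spearman's rho 0.12) and 0.03 between MHCC97H and Huh7 (rho 0.03). The sign was the same in 52.8% and 51.2% of the genes, respectively. Between Hep3B and Huh7, r was 0.13 (rho 0.13), with the same sign in 54.1%. These are descriptions across genes, which are not independent replicates. A limma fit on all 12 libraries tested the difference in departure between MHCC97H and the mean of the other lines. It called 0 of 11548 genes (0%) at an adjusted p under 0.05, with 162 at an unadjusted p under 0.05, of which 90 were well counted (0.94% of these). The fit has 3 residual degrees of freedom, and its only spread is that between Hep3B and Huh7.

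In terms of size, AZD8055 had the broader effect of the 2 drugs. With AZD8055, 452 genes were at least 2-fold higher than in untreated cells (4.72%) and 294 at least 2-fold lower (3.07%). With compound #57, these were 142 (1.48%) and 49 (0.512%), and with the combination 812 (8.48%) and 450 (4.7%). None of the 3 changes reached 2-fold in 8114 genes (84.7%). The combination reached 2-fold where neither drug did in 396 genes on the higher side and 215 on the lower side. The median departure of these genes was 0.06 and -0.18. Their median changes with AZD8055 and compound #57 alone were 0.72 and 0.53 on the higher side and -0.77 and -0.24 on the lower side. No gene that was at least 2-fold higher with 1 drug was at least 2-fold lower with the combination, or the reverse.

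Genes at least 2-fold higher with each of the drugs alone were mostly under the log2 sum. There were 74 of them, 73 were also at least 2-fold higher with the combination, and 65 had a departure below 0, with a median of -0.58. These values are a description, since the departure shares the untreated and single-drug libraries with the changes that chose the genes, and counting error in them moves genes chosen in this way below 0. BMF, a BH3-only gene that promotes apoptosis (chr15:40087890-40108892, hg38), had 220 reads untreated, 1722 with AZD8055, 743 with compound #57 and 3193 with the combination. Its level was thus highest with the combination, 3.93 above untreated on the log2 scale, and still 0.85 below the sum (departure -0.85, interval -1.08 to -0.61). The RTK gene ERBB3 had 537, 2862, 1070 and 3750 reads in the same order (departure -0.59, -0.76 to -0.43). CCNG2, a FOXO target linked to cell cycle arrest, had 102, 873, 199 and 1137 reads (-0.56, -0.93 to -0.19). YPEL2, listed with the FOXO targets, had 40, 324, 106 and 475 reads (-0.81, -1.38 to -0.25). In each of these 4 genes the combination library was the highest and lay below the sum. The stress-response gene TP53INP1 had the same form, with 84, 517, 275 and 1189 reads (-0.48, -0.87 to -0.10). Against the single drug with the larger change, the FOXO target list was higher with the combination by a median of 0.40, so that the sign of the departure of such genes depends on which null model is used.

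Of the 43 genes at least 2-fold below the sum, the combination library was above both single-drug libraries in 11 and between them in 14. Both drugs gave a higher level than untreated in 34 of them (79.1%, against 38.5% of all well-counted genes), and their median changes were 1.44 with AZD8055, 0.67 with compound #57 and 1.07 with the combination. Their mean over the 4 libraries had a median of 191.75 reads, against 587.6 for all well-counted genes. The departure contains the untreated level, so that choosing genes by a low departure favours low untreated levels and higher values with both drugs, and these figures describe the genes chosen and test nothing. TMPRSS2, which encodes a transmembrane serine protease (chr21:41464300-41531116), had 52 reads untreated, 343 with AZD8055, 283 with compound #57 and 699 with the combination. Its departure was -1.38 (-1.84 to -0.91), yet the combination library was the highest of the 4. MLXIPL encodes ChREBP, the glucose-responsive factor that switches on lipid synthesis genes (chr7:73593194-73624543). It had 54, 250, 122 and 217 reads, so that the combination was level with AZD8055 alone (departure -1.35, -1.88 to -0.82). CFI, a complement regulator, had 32, 94, 130 and 147 reads (-1.33), and UBA7, the activating enzyme for the ubiquitin-like protein ISG15, had 21, 174, 103 and 259 (-1.64). With additivity on the linear scale, TMPRSS2 and UBA7 were above the expected level, and against the larger single drug all 4 genes were at or above it.

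In 13 of the 43 genes the level with the combination was lower than with either drug and also lower than in untreated cells. APOB, the structural protein of very low-density lipoprotein (chr2:21001429-21044073), had 312 reads untreated, 501 with AZD8055, 311 with compound #57 and 206 with the combination (departure -1.26, -1.59 to -0.93). Scaled to library size, only the combination library was under the untreated one. AMD1, which makes the aminopropyl donor for polyamines, had 2266, 1283, 2090 and 558 reads (-1.07, -1.24 to -0.90), and PSAT1, an enzyme of serine synthesis, had 2193, 558, 2549 and 319 (-1.01, -1.22 to -0.79). Compound #57 alone gave log2 changes of 0.08 and 0.41 in these genes, and the combination lay below AZD8055 alone. The long non-coding RNA gene LINC00342, with 47, 220, 59 and 95 (-1.51), was not of this kind, since its combination library lay between those of the drugs. The largest departure belonged to MIR6087 with 456, 1493, 1277 and 858 reads (-2.27, -2.47 to -2.07), a small RNA gene that a polyA library is not made to count.

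Among the 23 genes at least 2-fold above the sum, the drugs alone gave changes of opposite sign in 15 (35.5% of all well-counted genes). The combination was higher than both single drugs and also higher than untreated in 20 (31.9%). Choosing genes by a high departure favours a high combination level and low single-drug levels, so that these counts are a description only. LMCD1, a LIM domain protein (chr3:8501807-8574668), had 289 reads untreated, 352 with AZD8055, 251 with compound #57 and 810 with the combination, the highest departure of all with 1.41 (1.11 to 1.72). HDAC9, a class IIa histone deacetylase (chr7:18086949-19002416), had 395, 469, 408 and 1124 reads (1.22, 0.97 to 1.48). The keratin gene KRT80 had 1497, 1474, 1626 and 3421 reads (1.11, 0.97 to 1.24). In these 3 genes the untreated and single-drug libraries lay close together and the combination library stood above them. The secreted matrix regulator CTGF (now CCN2), a YAP-TEAD target, followed the same course with 681, 775, 626 and 1430 reads (1.02, 0.82 to 1.22). The chemokine receptor ACKR3 had 589, 478, 638 and 1091 (1.09, 0.86 to 1.31), lower with AZD8055 and higher with compound #57 by -0.43 and 0.31 on the log2 scale. PLCE1, a RAS-regulated phospholipase C, had 126, 99, 151 and 280 reads (1.24), and the secreted protein gene CCDC80 had 186, 158, 244 and 470 (1.19). The stress factor ATF3 had 214, 269, 474 and 1259 reads (1.09, 0.79 to 1.39).

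The neighbouring fibrinogen genes FGA and FGB, which encode chains of the same plasma protein, were among them. FGA (chr4:154583126-154590742) had 172 reads untreated, 118 with AZD8055, 400 with compound #57 and 597 with the combination (1.13, 0.74 to 1.51). FGB (chr4:154563011-154572807) had 249, 157, 1167 and 1515 (1.05, 0.74 to 1.36). Both were lower with AZD8055 alone and highest with the combination. The departure of both was below 0 in Hep3B, at -1.20 and -1.13, and near 0 in Huh7, at 0.03 and 0.10.

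**Figure D2:**
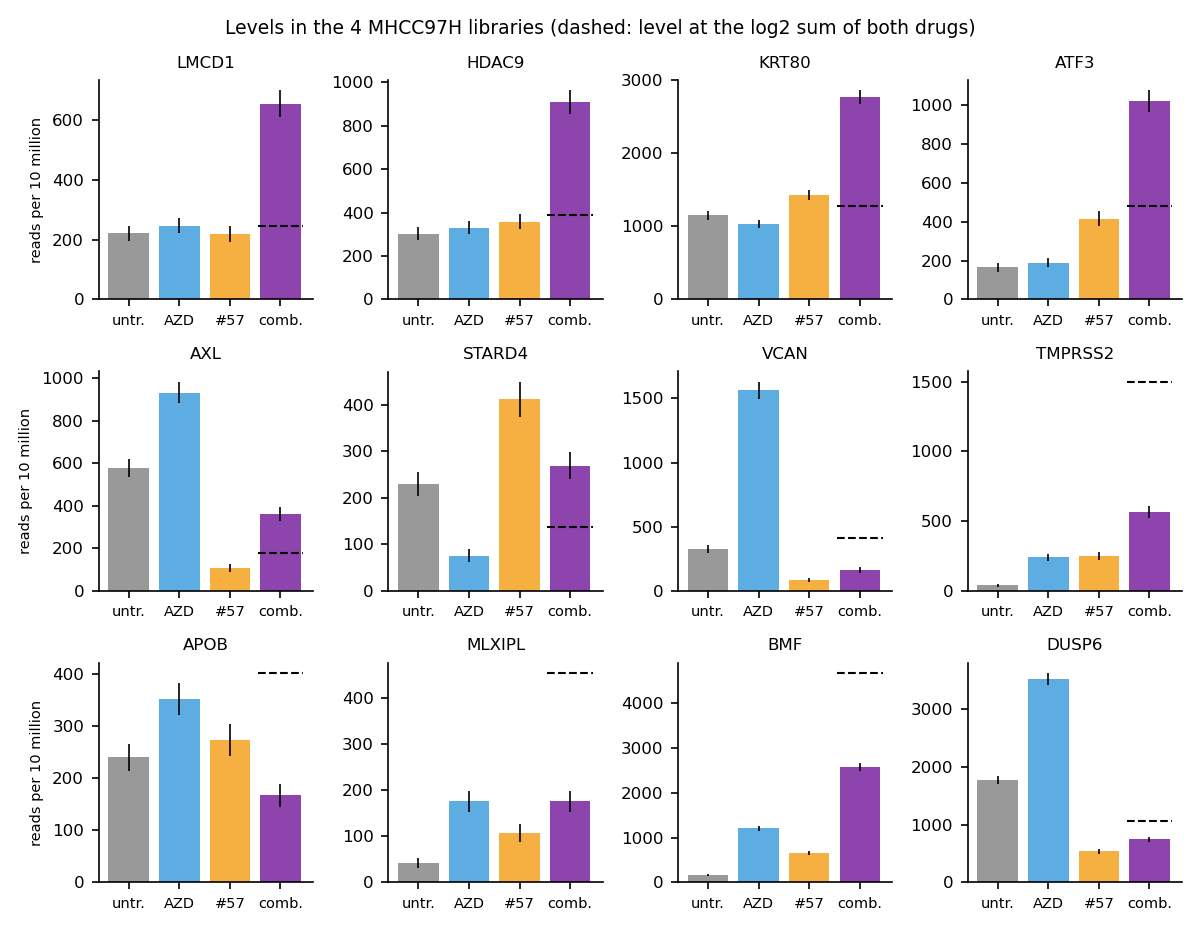
Bars give the level of 12 genes in the untreated, AZD8055, compound #57 and combination libraries of MHCC97H in reads per 10000000, with 95% counting intervals as error bars. The dashed line over the combination bar is the level at the log2 sum of both drugs: LMCD1, HDAC9 and KRT80 stand above it and TMPRSS2, APOB, MLXIPL and BMF below it.

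Where the drugs acted in opposite directions, the outcome differed from gene to gene. Only 6 genes were at least 2-fold higher with 1 drug and at least 2-fold lower with the other, and in all 6 the combination was within 2-fold of untreated. AXL, an RTK that is also a YAP-TEAD target (chr19:41219223-41261766), had 752 reads untreated, 1330 with AZD8055, 125 with compound #57 and 447 with the combination. The combination lay between the drugs and 1.02 above the log2 sum (0.71 to 1.33), but on the linear scale it was below the expected level, at -0.36. VCAN, the matrix proteoglycan versican (chr5:83471618-83582303), had 427, 2228, 98 and 205 reads and was 1.31 below the sum (-1.69 to -0.93). For VCAN the combination library was thus much nearer to compound #57 than to AZD8055. The ecto-nucleotidase NT5E had 1250, 2097, 383 and 387 (-0.72, -0.95 to -0.49). The cholesterol exporter ABCA1 had 387, 1285, 196 and 519 (-0.32, -0.60 to -0.03). In the RTK list as a whole, 6 of 17 well-counted members were above the sum (43.7% of all genes) and 11 below it, with a median of -0.19.

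The genes of cholesterol synthesis were higher with the combination than in untreated MHCC97H cells and mostly above the log2 sum. These enzymes make sterols from acetyl-CoA and are switched on together by the factor SREBP2 when sterols are low. Their promoters commonly hold CCAAT boxes, to which NF-Y binds, and sterol elements. The 250 bases before the start of 4 members are shown because the members moved together, with the motifs CCAAT (an NF-Y box) and TCACNCC (part of a sterol element) in capitals on either strand. The sequences are from RefSeq (GRCh38.p14), 5′ to 3′ on the strand of the gene. They lie at chr5:43313413-43313662 (minus strand) for HMGCS1, chr10:1048887-1049136 (minus) for IDI1, chr4:165327419-165327668 (plus) for MSMO1 and chr7:155297628-155297877 (plus) for INSIG1. HMGCS1 has 2 starts and IDI1 has 3. For these the start shown is the one with the most kinds of motif and then the most matches, so that it was picked for its motifs.
HMGCS1: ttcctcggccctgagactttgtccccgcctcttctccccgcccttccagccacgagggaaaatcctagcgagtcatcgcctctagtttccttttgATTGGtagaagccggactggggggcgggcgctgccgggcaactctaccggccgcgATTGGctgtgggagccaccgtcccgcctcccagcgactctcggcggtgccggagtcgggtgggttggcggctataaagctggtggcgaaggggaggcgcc
IDI1: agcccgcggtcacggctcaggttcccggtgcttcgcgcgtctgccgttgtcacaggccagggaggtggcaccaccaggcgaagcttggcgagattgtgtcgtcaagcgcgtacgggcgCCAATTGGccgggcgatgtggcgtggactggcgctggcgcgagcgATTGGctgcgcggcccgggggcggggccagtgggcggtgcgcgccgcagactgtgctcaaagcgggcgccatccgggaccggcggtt
MSMO1: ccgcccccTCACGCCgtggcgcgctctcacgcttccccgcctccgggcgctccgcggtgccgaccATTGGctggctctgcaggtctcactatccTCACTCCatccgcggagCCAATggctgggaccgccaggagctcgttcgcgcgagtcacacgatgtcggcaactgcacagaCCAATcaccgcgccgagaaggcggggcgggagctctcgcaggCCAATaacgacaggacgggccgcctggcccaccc
INSIG1: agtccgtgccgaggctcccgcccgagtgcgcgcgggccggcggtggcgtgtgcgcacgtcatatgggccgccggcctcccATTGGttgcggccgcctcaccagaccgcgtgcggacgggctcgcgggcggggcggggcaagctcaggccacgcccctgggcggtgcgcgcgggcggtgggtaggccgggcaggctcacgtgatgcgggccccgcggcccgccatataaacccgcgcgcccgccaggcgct

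Of the 25 well-counted members, 18 had a promoter in the table used, and CCAAT stood on either strand in 16 of them (88.9%), against 37.0% of 27305 genes and 42.2% of the well-counted genes. TCACNCC stood in 8 of the 18 (44.4%), against 15.5% and 17.6%. These are matches of letters and not measured sites.

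Compound #57 alone gave a higher level of 24 of the 25 well-counted cholesterol genes, with a median log2 change of 1.12, and 15 of them were at least 2-fold higher (1.48% of all genes). AZD8055 alone gave a lower level of 21, with a median of -0.48. With the combination, all 25 were higher than in untreated cells, with a median of 0.93 and 9 at least 2-fold higher (8.48% of all genes). IDI1, the isomerase that makes dimethylallyl diphosphate, had 669 reads untreated, 465 with AZD8055, 1645 with compound #57 and 1565 with the combination. INSIG1, which holds the SREBP complex in the endoplasmic reticulum, had 464, 350, 1582 and 1624. In both genes the libraries with compound #57, with or without AZD8055, stood above the other 2. HMGCS1, an enzyme of the pathway, had 649, 534, 1694 and 1202 reads, and MSMO1, a methylsterol oxidase, had 849, 696, 2548 and 2316.

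The departures of the cholesterol genes ran from -0.24 to 0.97, with a median of 0.19. Of the 25, 20 were above 0 (43.7% of all well-counted genes), and the interval lay above 0 in 12 and below 0 in 2 (13.5% and 20.8% of all). None was at least 2-fold above or below the sum. STARD4, a sterol carrier (298, 108, 469 and 332 reads), had the highest departure with 0.97 (0.59 to 1.34). ACAT2, which makes acetoacetyl-CoA (709, 256, 1350 and 712 reads) had 0.55 (0.31 to 0.80). With AZD8055 alone their log2 changes were -1.58 and -1.59. HMGCS1 and PMVK were the members with an interval below 0, at -0.20 and -0.24. Relative to compound #57 alone, the combination was lower by a median of 0.24 over the list. With additivity on the linear scale the median departure was -0.05, so that the position above the sum holds on the log2 scale only.

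In Hep3B and Huh7 the same genes did not follow the sum. The median departure was -1.07 in Hep3B and -0.51 in Huh7, with 1 of the 25 members above 0 in each, and 16 were at least 2-fold below the sum in Hep3B (2.98% of all genes). Compound #57 alone gave a higher level of 22 and 24 of the 25, with medians of 0.62 and 0.51. With the combination, however, 21 and 22 of the 25 were lower than in untreated cells, with a median of -0.63 in both lines. IDI1 had a departure of -1.15 in Hep3B and -0.67 in Huh7, against 0.46 in MHCC97H. For INSIG1 the values were -1.31, -0.93 and 0.46. On the linear scale the list median was -1.15 in Hep3B and -0.78 in Huh7, and against the larger single drug -1.23 and -0.14, the latter close to the -0.21 of MHCC97H. In the limma fit, 15 of the 25 genes had an unadjusted p under 0.05 for the difference between lines (0.94% of all well-counted genes), but the adjusted p was 0.99994 for IDI1 and INSIG1. The genes share a regulator and are not independent of each other.

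**Figure D3:**
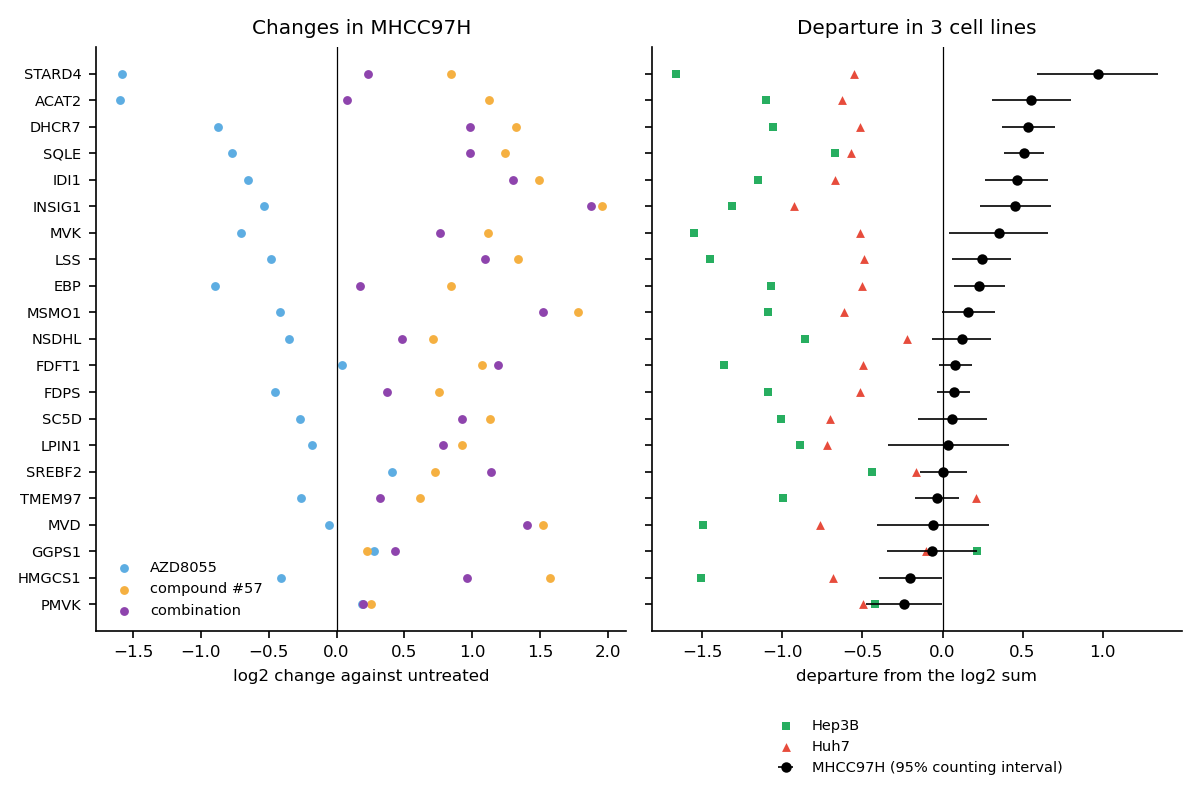
The left panel gives the log2 change of 21 of the 25 well-counted cholesterol synthesis genes against untreated MHCC97H cells with AZD8055, compound #57 and the combination. The right panel gives the departure in MHCC97H with its 95% counting interval and the departure in Hep3B and Huh7, nearly all of which lie to the left of the MHCC97H values.

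The fatty acid list shared part of this pattern. Over 20 well-counted members, the median log2 change was -0.26 with AZD8055, 0.38 with compound #57 and 0.12 with the combination, with a median departure of -0.03 and 8 members above 0 (43.7% of all genes). FASN, the fatty acid synthase (9357, 8458, 10611 and 9348 reads), and ACLY, which supplies its acetyl-CoA (5906, 5350, 5945 and 5261), lay on the sum with departures of -0.02 each. The desaturase FADS2 (1033, 369, 2189 and 1103 reads) was above it, at 0.51 (0.30 to 0.71). ELOVL6, a fatty acid elongase, was below it, with 583, 330, 512 and 159 reads and a departure of -0.85 (-1.17 to -0.53). ELOVL6 was also below the sum in Hep3B (-0.92) and Huh7 (-0.79). The list medians in those lines were -0.74 and -0.52. SREBF1, the gene of the lipogenic SREBP1, had 1366, 1781, 987 and 1036 reads (-0.30).

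Among ERK target genes, the median departure was 0.01, but single genes spread to both sides. Compound #57 alone gave a lower level of 29 of the 32 well-counted members (38.9% of all genes), with a median of -0.63, and the combination gave -0.61, while AZD8055 alone gave 0.03. The interval lay above 0 in 10 members and below 0 in 12 (13.5% and 20.8% of all genes). DUSP6, the phosphatase that switches off ERK (chr12:89347235-89352501), had 2300 reads untreated, 5013 with AZD8055, 612 with compound #57 and 921 with the combination. It was higher with AZD8055 alone and low in both libraries with compound #57 (departure -0.52, -0.69 to -0.36). DUSP4 had 1900, 3793, 953 and 1186 reads (-0.67, -0.82 to -0.52). The ETS factor genes ETV4 (616, 1111, 148 and 178 reads) and ETV5 (1132, 1372, 522 and 349) had departures of -0.57 and -0.84. Against untreated cells, the combination gave -1.24 in DUSP6 and -1.71 in ETV4, above compound #57 alone (-1.72 and -1.86). In ETV5 it gave -1.62, below compound #57 alone (-0.92). SPRY4, an inhibitor of RTK signalling, had 447, 497, 218 and 132 reads and was lowest with the combination (-0.86, -1.22 to -0.50). ETV1 was at -0.88, SPRY1 at -0.55, SPRED1 at -0.33 and SPRED2 at -0.21, each with an interval below 0.

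Of the 10 ERK targets with an interval above 0, EGR1, an immediate early zinc finger factor, had 1850 reads untreated, 940 with AZD8055, 956 with compound #57 and 962 with the combination. Scaled to library size, all 3 treated libraries were below the untreated one, with the combination between the drugs and 0.997 above the sum (0.83 to 1.17). The EGFR ligand AREG had 238, 60, 116 and 59 reads (1.01, 0.41 to 1.62), and EREG had 2600, 519, 878 and 275 (0.66, 0.43 to 0.90). For AREG the combination was level with AZD8055, and for EREG it was lower than with either drug. IER3 (1042, 1054, 486 and 851 reads) had 0.80 (0.60 to 1.01) and BHLHE40 (1626, 1415, 1112 and 1605) had 0.74 (0.59 to 0.89). SPRY2 stood apart from the other SPRY genes with 211, 195, 109 and 206 reads (1.04, 0.60 to 1.47). CDC42EP3 was the member with the largest increase over untreated in the combination, with 670, 1229, 934 and 2718 reads (0.68, 0.51 to 0.85). MYC had 2704, 3286, 2365 and 2184 reads (-0.38, -0.50 to -0.27), and CCND1 was on the sum with 4136, 4292, 3262 and 3398 (0.02).

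All 12 ERK targets with an interval below 0 in MHCC97H had a departure above 0 in Hep3B, from 0.03 for ETV1 to 3.72 for SPRY4, with a median of 0.78, and 9 of the 12 in Huh7 (54.2% and 49.6% of all genes). Of the 10 with an interval above 0, 7 were above 0 in Hep3B and 6 in Huh7. Over the whole list, 21 and 19 of the 32 members were above 0 in these lines, with medians of 0.30 and 0.14. On the linear scale the list median was -0.27 in Hep3B and -0.24 in Huh7. Against the larger single drug it was 0.72 and -0.03. In MHCC97H it was -0.007 on the linear scale and -0.10 against the larger single drug. The sign of the list median thus depends on the null model in all 3 lines. DUSP6 was at 2.99 in Hep3B and 0.01 in Huh7, ETV5 at 2.91 and 0.41, and DUSP4 at 0.46 and -0.20. SPRY2 was above 0 in all 3 lines, at 0.74 in Hep3B and 0.50 in Huh7. No ERK target passed the adjusted limma test, and 3 of the 32 had an unadjusted p under 0.05 (0.94% of all well-counted genes).

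**Figure D4:**
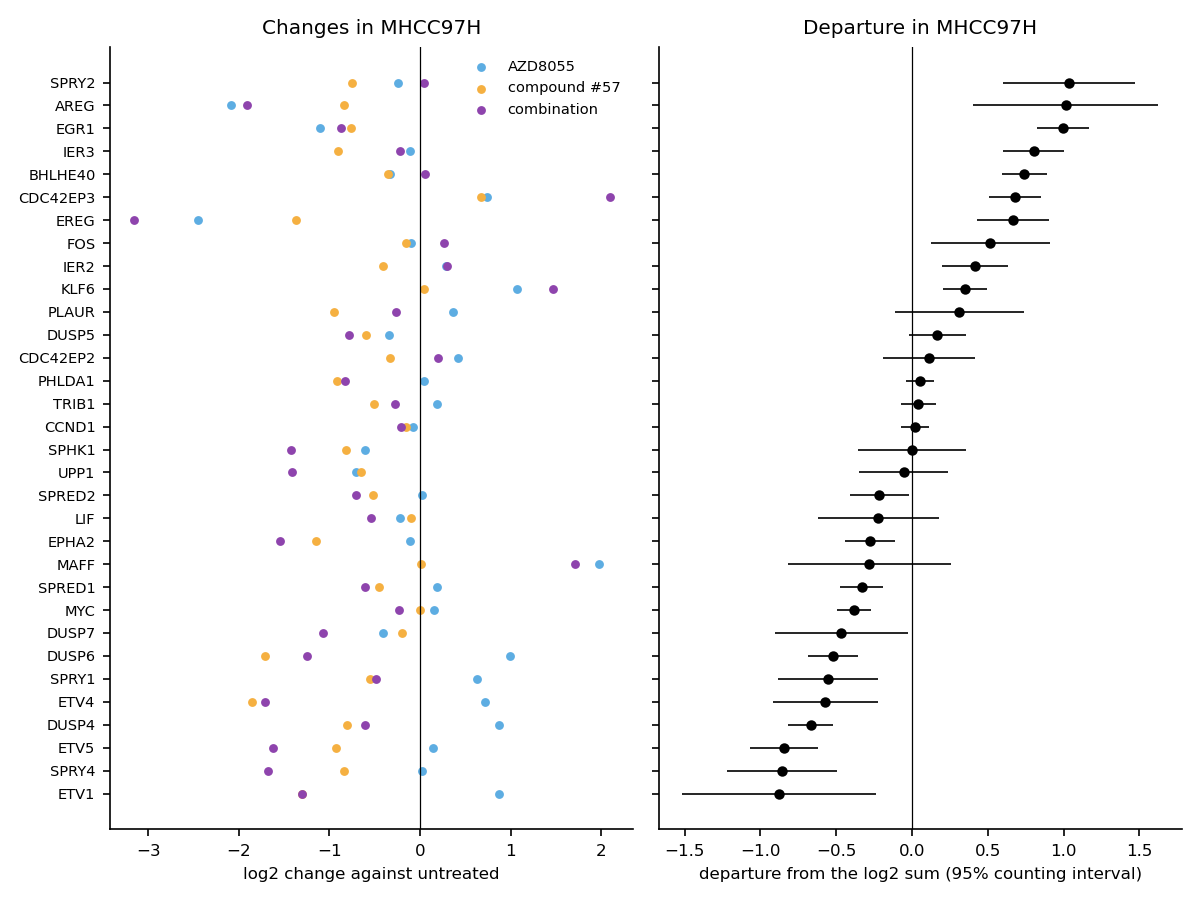
The left panel gives the log2 change of the 32 well-counted ERK target genes against untreated MHCC97H cells with AZD8055, compound #57 and the combination. The right panel gives the departure with its 95% counting interval, which lies below 0 for 12 genes, among them DUSP4, DUSP6, ETV4, ETV5 and SPRY4, and above 0 for 10, among them EGR1, AREG and SPRY2.

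The S phase list, which holds replication factors and nucleotide enzymes, had a median log2 change of -1.35 with AZD8055, 0.10 with compound #57 and -1.26 with the combination, and 39 of its 46 members were at least 2-fold lower with AZD8055 (3.07% of all genes). Its median departure was -0.07, with 15 above 0 (43.7% of all genes). UHRF1 (2601, 873, 2502 and 567 reads) and CLSPN (524, 118, 484 and 67) had departures of -0.55 and -0.68. On the other side, the licensing factor CDT1 (530, 275, 456 and 378 reads) had 0.69 (0.40 to 0.97) and the thymidine kinase TK1 (1774, 750, 1550 and 908) had 0.48 (0.31 to 0.65). With compound #57 alone the log2 change of these 4 genes was between -0.02 and 0.14. The mitosis list had medians of -0.80, -0.17 and -0.55, so that the combination was higher than AZD8055 alone by a median of 0.22. Its departure had a median of 0.39, with 40 of 43 members above 0 and the interval above 0 in 34 and below 0 in 2, against 43.7%, 13.5% and 20.8% of all genes. CDC20, the activator of the anaphase-promoting complex, had 1670 reads untreated, 773 with AZD8055, 1021 with compound #57 and 811 with the combination (0.79, 0.61 to 0.97). The mitotic kinase PLK1 had 2979, 1593, 1677 and 1458 reads (0.71, 0.58 to 0.85), AURKB had 768, 351, 493 and 369 (0.72) and TTK had 877, 544, 656 and 677 (0.75). For CDC20, PLK1 and AURKB all 3 treated libraries lay below the untreated one, AZD8055 being the lowest and compound #57 the highest of them. Mitosis genes had a median departure of 0.09 in Hep3B, with 29 of 43 above 0 (54.2% of all genes), and -0.51 in Huh7, with 0 of 43 above 0 (49.6%). On the linear scale these medians were 0.27 and -0.47, and against the larger single drug -0.18 and -0.66. The sign in Hep3B thus depends on the null model.

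Promoters of mitotic genes often hold CCAAT boxes together with the CHR element TTTGAA, at which the DREAM complex binds. The 250 bases before the start of CCNB2 (chr15:59104896-59105145, plus strand) and CDC20 (chr1:43358731-43358980, plus strand) show both, with each of these motifs in capitals on either strand.
CCNB2: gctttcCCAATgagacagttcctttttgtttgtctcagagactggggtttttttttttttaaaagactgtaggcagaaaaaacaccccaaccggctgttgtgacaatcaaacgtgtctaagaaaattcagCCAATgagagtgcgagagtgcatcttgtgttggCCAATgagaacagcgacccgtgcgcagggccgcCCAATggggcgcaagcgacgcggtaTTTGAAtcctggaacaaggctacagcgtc
CDC20: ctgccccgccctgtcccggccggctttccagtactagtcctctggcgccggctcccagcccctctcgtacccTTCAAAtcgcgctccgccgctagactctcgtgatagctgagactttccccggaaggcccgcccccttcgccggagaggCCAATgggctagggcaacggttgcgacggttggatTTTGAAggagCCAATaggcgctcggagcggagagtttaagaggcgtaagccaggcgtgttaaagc

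TTTGAA or its complement stood in 20 of the 35 mitosis promoters in the table used (57.1%), against 16.1% of all genes and 11.9% of the well-counted genes, and CCAAT in 29 (82.9%).

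Genes of the translation machinery moved in 2 ways. Of 86 genes of cytosolic ribosomal proteins and translation factors, 80 were above the sum, with a median departure of 0.27 and the interval above 0 in 74 (43.7% and 13.5% of all genes). Their median log2 changes were small, 0.03 with AZD8055, -0.26 with compound #57 and 0.04 with the combination. RPL6, for example, had 8459, 7180, 5713 and 6688 reads (0.48, 0.41 to 0.54) and RPS9 had 3941, 4397, 2886 and 4485 (0.49, 0.40 to 0.58). The number of members higher than in untreated cells was 51 with AZD8055, 6 with compound #57 and 52 with the combination (51.4%, 61.1% and 53.2% of all genes). The same list had medians of 0.46 in Hep3B and 0.37 in Huh7, with 85 and 86 of 86 above 0 (54.2% and 49.6% of all genes). Many of these genes have processed copies in the genome, and how shared reads were assigned is not given. By contrast, the ribosome biogenesis list, with nucleolar and RNA polymerase I factors, had medians of -0.53, -0.18 and -0.85, and 16 of 50 were at least 2-fold lower with the combination (4.7% of all genes). Its median departure was -0.10, with 34 of 50 below 0 (56.3% of all genes) and the interval below 0 in 18 (20.8%). NOLC1 had 3667, 2329, 3019 and 1388 reads (-0.45, -0.57 to -0.34), and POLR1A had 2559, 2392, 2061 and 1344 (-0.51, -0.63 to -0.38). In Hep3B and Huh7 the median departure of this list was 0.37 in both, with 47 and 48 of 50 above 0 (54.2% and 49.6% of all genes).

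The stress, growth arrest and inflammation lists had median departures from -0.17 to 0.16. FOXO targets, which mTOR and AKT signalling keeps low, had medians of 1.22 with AZD8055, 0.47 with compound #57 and 1.497 with the combination, and 15 of 19 were at least 2-fold higher with the combination (8.48% of all genes), with a median departure of -0.09. The amino acid response (ATF4) list had -0.72, 0.05 and -0.76, with a departure of -0.05, where ASNS (981, 419, 1370 and 383 reads) was at -0.60 and ATF3 at 1.09. Interferon response genes had 0.73, 0.52 and 1.08, and 16 of 23 were below the sum (56.3% of all genes), with a median of -0.17 that was 0.19 against the larger single drug. IFITM2, for instance, had 45, 197, 58 and 129 reads (-0.95). The unfolded protein response list had -0.56, -0.10 and -0.46, with 20 of 25 above the sum (43.7% of all genes) and a median of 0.16 that was -0.043 against the larger single drug. HSPA5, the main chaperone of the endoplasmic reticulum, had 11004, 3118, 6330 and 2491 reads (0.49, 0.40 to 0.57). NF-kB and inflammation genes had 0.20, 0.27 and 0.66, with 12 of 13 above the sum (43.7% of all genes), the interval above 0 in 5 (13.5%) and a median departure of 0.14. The neutrophil chemokine gene CXCL5, the member farthest from the sum, had 502, 442, 900 and 1484 reads (0.92, 0.70 to 1.14).

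YAP-TEAD targets had a median departure of 0.22 in MHCC97H, with 10 of 17 above 0 (43.7% of all genes), against -0.49 in Hep3B and -0.62 in Huh7. CYR61 (now CCN1), a secreted partner of CTGF in this list, had 245 reads untreated, 430 with AZD8055, 346 with compound #57 and 889 with the combination (0.56, 0.27 to 0.85). Its departure was -2.28 in Hep3B and -1.49 in Huh7. The vasoconstrictor gene EDN1 had 385, 697, 528 and 1560 reads (0.72, 0.49 to 0.95) and the E3 ligase gene TRIM31 had 801, 1366, 1364 and 3694 (0.68, 0.53 to 0.83). Both passed 2-fold in the combination alone, at 2.09 and 2.28 on the log2 scale, and are among the 6 genes of that class with the largest increase. On the lower side of that class stood PKM, the pyruvate kinase of glycolysis (67576, 45020, 37925 and 19259 reads), with a departure of -0.38 (-0.41 to -0.35), and the aldo-keto reductase AKR1B10 (66207, 40806, 46948 and 19271) with -0.57 (-0.60 to -0.54). In both, each drug alone gave a lower level and the combination the lowest.

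**Figure D5:**
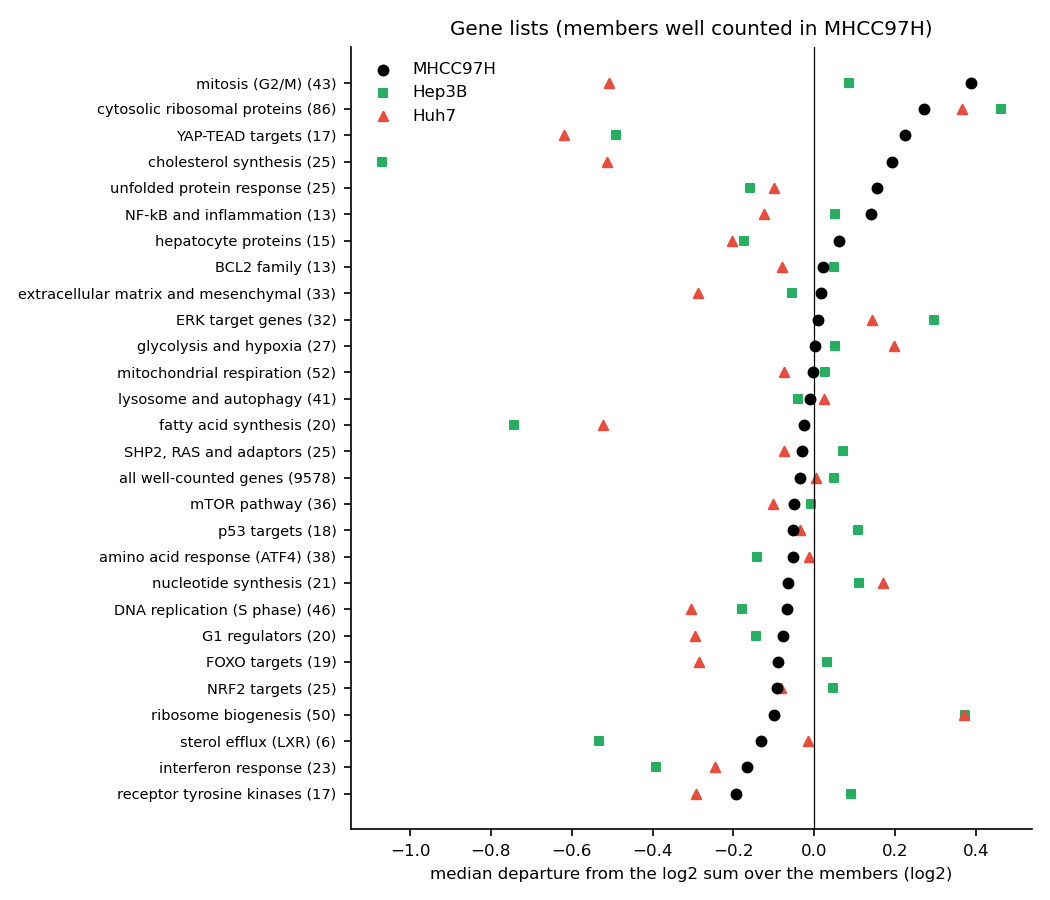
The median departure (log2) over the members of each gene list that were well counted in MHCC97H is given for MHCC97H, Hep3B and Huh7, with the number of members in parentheses. Cholesterol synthesis is at 0.19 in MHCC97H, -1.07 in Hep3B and -0.51 in Huh7, and ribosomal proteins are above 0 in all 3 lines.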

How the data were processed

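RNA of untreated and drug-treated HCC cells was sequenced by the authors after a TruSeq preparation (polyA+ and stranded per the labels) and aligned to hg38. The aligner, the counting tool and the use of strand in counting are not given in the sources used here. The authors deposited 1 log2 value per gene and library. Undoing the logarithm left values that, within a library, stood at whole-number steps of a common unit (tolerance 0.02 reads). They were therefore taken to be read numbers normalised to a library total of 10000000, with a pseudocount of 1, and the reads of each gene were recovered from them. Genes with 0 reads were set to 0. The table holds 98.6% to 98.8% of the reads of these libraries. No value has a replicate, the number of reads sets the precision, and every 95% interval (Wald, from the reads) covers counting error only.

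The departure and its interval were computed in Python 3.11.15 with numpy 2.4.6, pandas 2.3.3 and scipy 1.17.1, and figures were drawn with matplotlib 3.10.9. Across cell lines, limma 3.58.1 in R 4.3.3 (lmFit, eBayes with trend, two-sided, Benjamini-Hochberg over 11548 genes) was fitted to all 12 libraries with cell line, treatment and treatment by MHCC97H as terms. Gene positions, transcript lengths and GC content were those of GENCODE 44 (hg38), in which 96.9% of the genes were found by symbol or RefSeq synonym. Promoters came from RefSeq (GRCh38.p14). The calculations were tested on simulated data. Some genes under the naming rule below are not reported here.

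The 27 gene lists, written from general knowledge, and the comparison itself were chosen with earlier results of these data known. Genes named were the 12 highest and 12 lowest departures among well-counted genes with at least 20 reads in each library, the 4 members of each list with the largest departure (all members for cholesterol, fatty acid and ERK lists), MTOR and PTPN11, the 6 genes per direction with the smallest limma p, and the 6 per direction with the largest change among genes past 2-fold in the combination alone. Alternatives were 10 added in place of 1, whole reads with no pseudocount, no filter, a mean of at least 500 reads, libraries centred on their medians, additivity on the linear scale, the larger single drug as reference, adjustment for GC content and length by a polynomial of degree 3, and for limma also voom and no trend. The values of both other null models in Hep3B and Huh7 were chosen after the data were seen.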

Additional observations from a re-analysis of the deposited data

Results flagged for a closer look

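The departure had the opposite sign in MHCC97H and in both other cell lines for 7 gene lists. These were cholesterol synthesis (median 0.19 in MHCC97H, -1.07 in Hep3B, -0.51 in Huh7), YAP-TEAD targets (0.22, -0.49, -0.62), ribosome biogenesis (-0.10, 0.37, 0.37) and the unfolded protein response (0.16, -0.16, -0.10). The other 3 were close to 0 in MHCC97H, with 0.017 for extracellular matrix genes, 0.060 for hepatocyte proteins and -0.065 for nucleotide synthesis. For these lists the difference was not tested, and line and time cannot be told apart. Of the 9578 genes well counted in MHCC97H, 5077 had the same sign in Hep3B, 4837 in Huh7 and 2747 in both. Opposite signs between lines were thus common among single genes, and the count of lists is a description only.

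Among named genes, 14 were flagged as at least 0.5 from the sum in each line, with counting intervals that excluded 0 and with opposite signs. AREG, which is not among the 14, also met these conditions, at 1.01 in MHCC97H, -1.56 in Hep3B and -2.31 in Huh7. It had 18 reads in untreated Huh7 cells. Named genes were chosen in part for a large departure or a small limma p, which favours differences between lines. The share of all genes that meet these conditions was not worked out, so that the count is a description only. The flagged genes were as follows. Above the sum in MHCC97H and below it in Hep3B and Huh7 were the cholesterol genes STARD4 (0.97), ACAT2 (0.55), DHCR7 (0.54) and SQLE (0.51). The same held for PLCE1 (1.24), CCDC80 (1.19), the clathrin adaptor gene AP1M2 (0.83), EDN1 (0.72), GADD45B (0.63), the chemokine gene CXCL8 (0.63) and CYR61 (0.56). Below the sum in MHCC97H and above it in the others were SPRY1 (-0.55), the zinc finger gene ZNF792 (-0.73) and the tight junction gene TJP3 (-0.92). In limma, none of them passed at an adjusted p under 0.05, where the smallest adjusted p was 0.99994, and the fit has 1 library per line and treatment.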

How the results depend on the processing

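The count of genes at least 2-fold above or below the log2 sum depends on how it is taken. It was 15 above and 26 below with 10 added in place of 1, 125 and 235 with no filter on reads, 10 and 8 with a mean of at least 500 reads, and 72 and 27 with the larger single drug as reference. On the linear scale 70 genes were above, 14 of them shared with the 23 on the log2 scale, and 16 of the 43 below were also below. The cause was not tested. Whole reads without a pseudocount, centring and the adjustment for GC content and length kept both counts within 1.5 times, and centring shifted the all-gene median by 0.022.

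Of 224 list medians under an alternative, 214 moved by less than the median half-width of the members' counting intervals. This limit is wider than many of the medians themselves, so that a change of sign can lie within it. With the larger single drug, fatty acid synthesis went from -0.03 to 0.13 and ERK targets from 0.01 to -0.10, both within the limit. Cholesterol synthesis was -0.051 on the linear scale and -0.21 with the larger single drug as reference, and FOXO targets were 0.26 and 0.40. With the larger single drug, ribosome biogenesis was -0.26, mitosis 0.22, lysosome and autophagy 0.21, the unfolded protein response -0.043 and the interferon response 0.19. Sterol efflux was 0.24 with a mean of at least 500 reads, from fewer members. Of 1334 values of named genes, 193 moved by more than their counting interval allows, 114 of them with the larger single drug and 75 on the linear scale, and 7 more changed sign after a departure of at least 2-fold. AXL was -0.36, TMPRSS2 0.33 and UBA7 0.093 on the linear scale, and TMPRSS2 was 1.18, UBA7 0.77, CFI 0.059 and MLXIPL 0.00069 against the larger single drug.

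The limma fit called 0 genes under all its alternatives, with between 68 and 104 well-counted genes at an unadjusted p under 0.05, of which 11 to 16 were cholesterol genes. Without Hep3B or without Huh7 no test was possible, and the difference of VCAN was -1.94 and -3.34 against -2.64 with both. No paired analysis was possible because each group has 1 library. Depth limits genes with few reads most: the median half-width of the interval was 0.24 over all well-counted genes.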

Other observations

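Lists not described above lay near the sum in MHCC97H. The mTOR pathway list had a median departure of -0.05 (14 of 36 above 0, against 43.7% of all genes) and the SHP2, RAS and adaptor list -0.03 (12 of 25), where SOS1, the RAS exchange factor, had 1780 reads untreated, 2524 with AZD8055, 3425 with compound #57 and 3790 with the combination (-0.35). GAB1, a docking protein that binds SHP2, had 175, 409, 363 and 557 reads in the same order (-0.59). Of 41 lysosome and autophagy genes, 31 were higher with AZD8055, 33 with compound #57 and 32 with the combination than in untreated cells (51.4%, 61.1% and 53.2% of all genes), with medians of 0.30, 0.26 and 0.61 and a departure of -0.01. Mitochondrial respiration was at 0.00 (25 of 52 above 0), glycolysis and hypoxia at 0.00, the BCL2 family at 0.02, p53 targets at -0.05, G1 regulators at -0.08 and NRF2 targets at -0.09. Sterol efflux genes, with 6 well-counted members, were at -0.13.

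For nucleotide synthesis, the median log2 change was -0.64 with AZD8055, -0.05 with compound #57 and -0.75 with the combination. PPAT, the first enzyme of purine synthesis, had 833, 465, 716 and 261 reads (-0.60), whereas IMPDH2, of guanine nucleotide synthesis, had 1740, 1088, 1271 and 1324 (0.75). Members of 1 pathway thus lay on both sides of the sum.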
